A study of Mus musculus with 6 samples.

Results

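Genes that mark neutrophils were followed across the series: S100a8, S100a9, Ngp, Ltf, Camp, Mmp8, Mmp9, Csf3r, Cxcr2 and Il1r2, which are 10 of the 20259 genes with a named row. They were chosen by name, and each had exactly 1 row of the expression table that carried its symbol alone. The series compared GFP+ cells, sorted by flow cytometry from the pancreas of KCiMist1G mice, a model of preinvasive pancreatic cancer, with and without p120 catenin. The p120 knockout group was KCiMist1G; p120f/f and the p120 wild-type group was KCiMist1G; p120wt/wt, with 3 arrays each. Animals of both groups received tamoxifen to activate Cre at an age of 7 to 9 weeks, and the pancreas was taken 2 weeks later. The labels do not spell out the name KCiMist1G or which promoter drives Cre, and they number the arrays of each group as biological replicates while leaving unsaid whether each came from a single animal.

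All values are RMA log2 expression, so a difference of 1 is a doubling of signal on a scale that compresses dim rows, and no detection calls came with it. Acinar cell markers (8 measured), the cells the pancreas is mostly made of, averaged 10.8 to 11.6 in knockout, against 11.3 to 11.4 in wild type. Ctnnd1, which encodes p120 catenin, gave 5.61, 6.61 and 6.38 on the arrays labelled knockout, against 5.87, 6.81 and 6.44 in wild type. Its difference of -0.17 (SE 0.32, adjusted p = 0.922 in limma) did not show a loss of the transcript. Without knockout array 1 the Ctnnd1 difference was 0.12 (SE 0.26, limma adjusted p = 0.769). A row that reads outside the deleted part checks nothing. Every direction below is that of the labels. Knockout array 1 stood apart from the other knockout arrays. On the first principal component it lay at -38.1 and knockout arrays 2 and 3 at 28.4 and 37.1. The wild-type arrays lay between these 2 sides, from -14.9 to -4.16. Each result on the neutrophil genes is for that reason given with and without it.

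Neutrophils are short-lived phagocytes that leave the bone marrow with their weapons already packed in granules. Azurophil granules, which carry myeloperoxidase and serine proteases, are loaded first, specific granules with lactoferrin and cathelicidin next, and gelatinase granules last, while receptors for chemokines and growth factors appear on the surface as the cell matures. In inflamed pancreas neutrophils are recruited from blood, largely through CXCR2 ligands. In RNA pooled from many cells, fewer cells of a type and less RNA per cell cannot be told apart.

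To show what these genes look like at their starts, the stretches around the start sites are printed for the S100 pair, which encodes partners of 1 complex, and for Ngp and Ltf, whose windows share an identical run of letters. RefSeq promoter windows (build GRCm38.p6, 250 bases before to 50 after the start) were matched for 9 of the 10 genes, with Mmp9 unmatched. Capitals mark 3 short patterns searched on both strands: TTGCNNAA, the core bound by C/EBP factors, GAGGAA, a core bound by the granulocyte and macrophage factor PU.1, and TATAAA, the TATA box. The Ngp window is chr9:110419558-110419857 (plus strand), the Ltf window chr9:111019042-111019341 (plus strand), the S100a8 window chr3:90668821-90669120 (plus strand) and the S100a9 window chr3:90695672-90695971 (minus strand). Each is written 5′ to 3′ on the gene's own strand.
Ngp: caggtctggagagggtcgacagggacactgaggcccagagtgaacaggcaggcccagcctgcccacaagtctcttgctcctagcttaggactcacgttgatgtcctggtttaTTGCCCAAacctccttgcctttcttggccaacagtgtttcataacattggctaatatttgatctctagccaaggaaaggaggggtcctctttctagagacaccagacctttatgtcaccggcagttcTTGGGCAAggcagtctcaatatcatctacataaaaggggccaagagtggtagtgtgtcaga
Ltf: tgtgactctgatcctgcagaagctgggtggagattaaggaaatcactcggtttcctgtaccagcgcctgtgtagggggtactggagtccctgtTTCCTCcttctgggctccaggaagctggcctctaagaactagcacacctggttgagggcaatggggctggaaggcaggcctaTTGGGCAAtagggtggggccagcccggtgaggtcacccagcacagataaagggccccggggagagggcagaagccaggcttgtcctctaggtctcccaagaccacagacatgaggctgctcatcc
S100a8: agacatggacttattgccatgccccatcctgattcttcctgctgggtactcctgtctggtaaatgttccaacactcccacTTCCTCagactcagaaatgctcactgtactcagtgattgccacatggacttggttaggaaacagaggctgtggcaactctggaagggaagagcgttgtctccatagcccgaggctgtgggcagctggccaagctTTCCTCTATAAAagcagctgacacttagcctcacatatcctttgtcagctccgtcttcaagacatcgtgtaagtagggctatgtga
S100a9: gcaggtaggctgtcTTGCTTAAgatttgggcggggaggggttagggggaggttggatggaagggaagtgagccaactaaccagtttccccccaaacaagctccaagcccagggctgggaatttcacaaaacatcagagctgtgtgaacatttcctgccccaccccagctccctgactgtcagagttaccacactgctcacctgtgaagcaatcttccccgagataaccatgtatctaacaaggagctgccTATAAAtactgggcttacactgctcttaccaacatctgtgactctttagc

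The C/EBP pattern was found in 4 of the 9 windows (Ngp, Ltf, Mmp8 and S100a9), against 10.8% of all 32851 windows in the table. Ngp held it at -138 (TTGCCCAA) and -11 (TTGGGCAA) from the annotated start, and Ltf held the same TTGGGCAA at -75. The PU.1 pattern was found in 5 of the 9 (S100a8, Ltf, Mmp8, Csf3r and Cxcr2), against 28.3% of all windows, and the TATA pattern in 3 of the 9, against 13.6%. In S100a8 a PU.1 pattern at -36 ran directly into TATAAA at -30, and no 2 of the capital runs overlapped. The TATA pattern of S100a9 began at 1 and that of Mmp8, read as TTTATA, at -3, both right at the annotated start. These are matches of letters, not measured sites, and no value of the arrays bears on them.

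None of the 10 genes differed between the groups beyond the spread between arrays. In limma, fitted over all 20259 genes with Benjamini-Hochberg adjustment at 0.05, 0 of 10 passed, against 0.0% of all genes, and at an unadjusted p under 0.05 also 0 of 10 passed, against 3.49% of all genes (708). The 95% interval of all 10 differences held 0. The median difference over the 10 was -0.15 and 8 of 10 lay lower in knockout, against a median of 0.055 and 38.3% of genes lower in the whole table. After each array was shifted to 1 median, 9 of 10 and 56.9% lay lower. All 10 had their highest value of the 6 arrays on knockout array 1, against 17.6% of all genes. In 9 of 10, all but Camp, knockout arrays 2 and 3 were also the lowest pair, against 9.46% of all genes. No gene of the 10 separated the groups, where 2.47% of all genes lay below and 6.21% above all wild-type arrays on every knockout array.

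**Figure D1:**
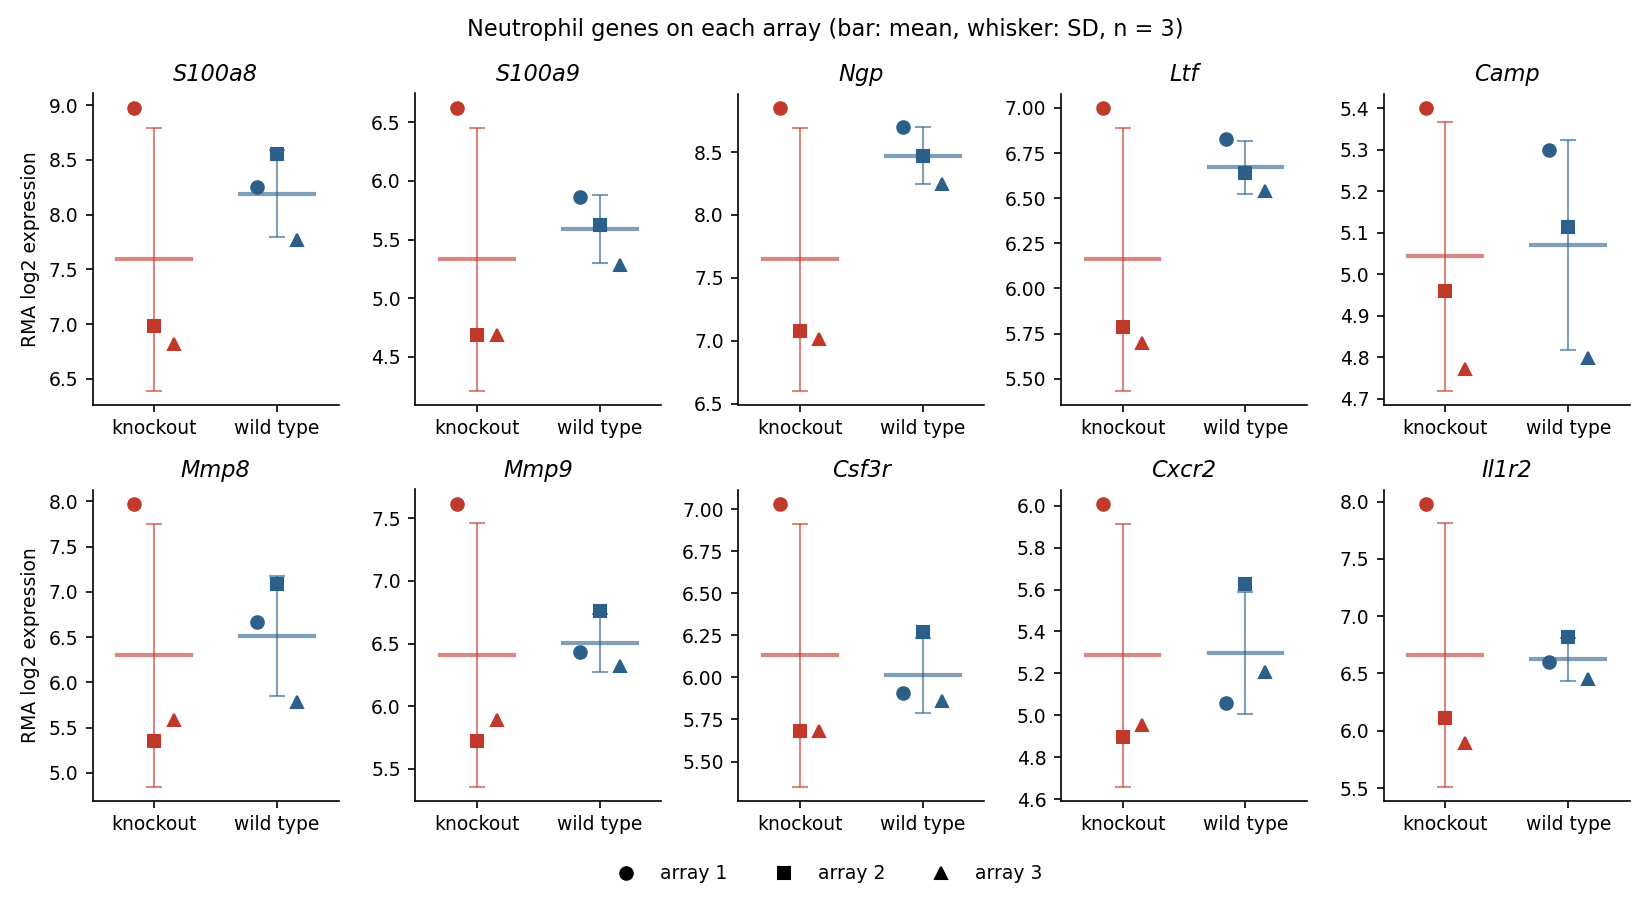
RMA log2 expression (vertical axes, each with its own range) of the 10 genes on the 3 knockout arrays (red, left) and the 3 wild-type arrays (blue, right), with symbols for the array number, bars at the mean and whiskers of 1 SD. In every panel knockout array 1 is the highest point, and in 9 of 10 knockout arrays 2 and 3 lie below all wild-type arrays.

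S100a8 and S100a9 encode the partners of calprotectin, a calcium- and zinc-binding complex that fills the neutrophil cytosol, and lie next to each other on chromosome 3. S100a8 gave 8.98, 6.99 and 6.82 on the knockout arrays, against 8.25, 8.56 and 7.77 in wild type. Knockout array 1 was above all wild-type arrays and the other knockout arrays were below them, so the groups overlapped. The knockout mean was 7.59 ± 1.20, against a wild-type mean of 8.19 ± 0.40 (SD, n = 3 each), a difference of -0.60 (SE 0.55, limma adjusted p = 0.907). S100a9 gave 6.62, 4.69 and 4.69 in knockout and 5.86, 5.62 and 5.28 in wild type, in the same arrangement. Its difference was -0.26 (SE 0.50, limma adjusted p = 0.927). The differences without knockout array 1 were -1.29 for S100a8 (SE 0.23, limma adjusted p = 0.0569) and -0.90 for S100a9 (SE 0.17, limma adjusted p = 0.0604), so neither passed on those 5 arrays either.

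Ngp, Ltf and Camp belong to the specific granules. Ngp encodes neutrophilic granule protein, a relative of the cathelicidins and cystatins, and had the most negative difference of the 10. It gave 8.85, 7.08 and 7.01 on the knockout arrays, against 8.70, 8.47 and 8.25 in wild type. The wild-type arrays spanned 0.45 and lay just under knockout array 1, while knockout arrays 2 and 3 were more than a full unit lower. The difference was -0.82 (SE 0.47, 95% interval -1.91 to 0.27, limma adjusted p = 0.907). Ltf, the iron-binding lactoferrin, repeated this order array for array with 7.00, 5.79 and 5.70 in knockout and 6.83, 6.64 and 6.54 in wild type. Its difference was -0.51 (SE 0.33, limma adjusted p = 0.907). On the arrays other than knockout array 1, Ngp differed by -1.43 (SE 0.15) and Ltf by -0.93 (SE 0.12). Both had a limma adjusted p of 0.0509 and did not pass. On those arrays 29.3% of all genes (5938) had an unadjusted limma p under 0.05.

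Camp, the cathelicidin precursor whose cleaved peptide kills bacteria, spanned the least among the knockout arrays. It gave 5.40, 4.96 and 4.77 in knockout and 5.30, 5.11 and 4.80 in wild type, so the values of both groups were interleaved. Knockout array 2 lay above wild-type array 3, and Camp was the 1 gene in which the knockout arrays other than array 1 were not the lowest pair. Its difference was -0.026 (SE 0.20, limma adjusted p = 0.98) with all arrays and -0.21 (SE 0.17, limma adjusted p = 0.422) without knockout array 1. Camp and Cxcr2 were the 2 of 10 genes with a mean below that of the median gene (5.43), where RMA compresses differences.

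Mmp8 and Mmp9 are the metalloproteases of neutrophil granules, a collagenase and a gelatinase that cut matrix as the cell crosses tissue. Mmp8 spread widest within both groups: 7.97, 5.35 and 5.58 in knockout and 6.66, 7.09 and 5.78 in wild type. Knockout array 1 exceeded the mean of knockout arrays 2 and 3 by 2.51, and wild-type array 3 lay only slightly above that pair. The difference was -0.21 (SE 0.69, limma adjusted p = 0.954) and, without knockout array 1, -1.05 (SE 0.36, limma adjusted p = 0.126). Mmp9 gave 7.62, 5.72 and 5.89 in knockout and 6.43, 6.76 and 6.32 in wild type. All wild-type arrays fell in the gap between knockout array 1 and the other knockout arrays. Its difference was -0.096 (SE 0.47, limma adjusted p = 0.969) and, without knockout array 1, -0.70 (SE 0.15, limma adjusted p = 0.0665).

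The receptors differed by at most 0.12 in either direction. Csf3r, the receptor for the granulocyte growth factor G-CSF, gave 7.03, 5.68 and 5.68 in knockout and 5.91, 6.27 and 5.86 in wild type. Knockout array 1 stood 1.02 above the wild-type mean and the other knockout arrays sat just under the lowest wild-type array. The difference was 0.12 (SE 0.36, limma adjusted p = 0.952). Cxcr2, the chemokine receptor that guides neutrophils out of marrow and into tissue, gave 6.01, 4.90 and 4.95 in knockout and 5.06, 5.62 and 5.21 in wild type, a difference of -0.011 (SE 0.31, limma adjusted p = 0.995). Its lowest wild-type array was array 1, where the other 9 of 10 genes had array 3 lowest, against 36.4% of all genes. Il1r2, a decoy that binds interleukin-1 without signalling, gave 7.98, 6.12 and 5.89 in knockout and 6.598, 6.82 and 6.45 in wild type, a difference of 0.040 (SE 0.51, limma adjusted p = 0.988). All of these were below 0 without knockout array 1: -0.33 for Csf3r (limma adjusted p = 0.187), -0.37 for Cxcr2 (limma adjusted p = 0.209) and -0.62 for Il1r2 (limma adjusted p = 0.0721).

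In an exact two-sided permutation test of each gene over the 6 arrays, p ran from 0.4 to 1, where 3 arrays against 3 cannot give less than 0.1. The spread lay within the knockout group: in 10 of 10 genes the knockout arrays spanned more (0.63 to 2.62) than the wild-type arrays (0.29 to 1.31). Knockout arrays 2 and 3 differed from each other by at most 0.23 in any of the 10. Knockout array 1 was at least 1 log2 unit above their mean in 9 of 10 genes, against 3.03% of all genes.

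**Figure D2:**
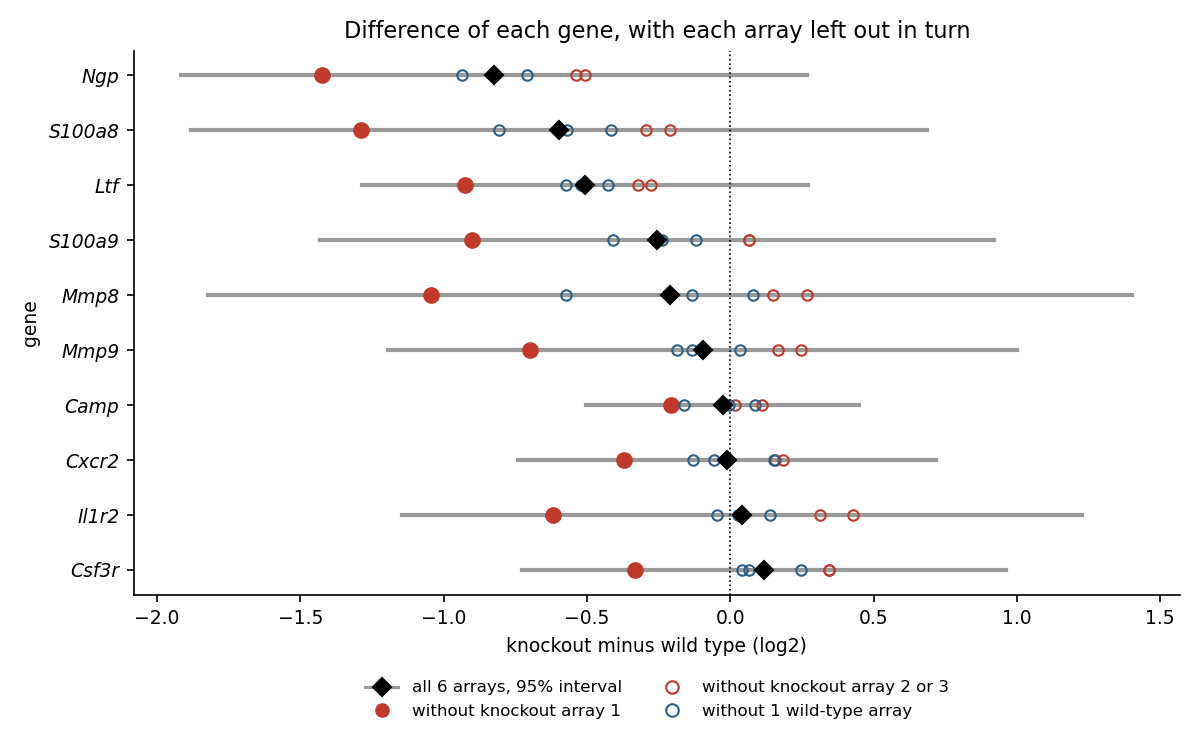
Knockout minus wild-type difference (horizontal axis, log2) of each of the 10 genes with all 6 arrays (diamond, with its 95% interval) and with each array left out in turn (circles, red for a knockout array and blue for a wild-type array). Without knockout array 1 (filled) all 10 lie below 0, and without knockout array 2 or 3 only Ngp, S100a8 and Ltf do.

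The direction of most genes depended on which array was left out. Without knockout array 1, 10 of 10 were lower in knockout and the median difference was -0.80, against 34.7% of all genes and a median of 0.11. On those 5 arrays 9 of 10 lay below every wild-type array on both knockout arrays, against 16.8% of all genes. At an unadjusted p under 0.05, 7 of 10 were lower, against 10.8% of all genes, and after adjustment 0 of 10, against 0.00987% (2 genes). Without knockout array 2, and likewise without knockout array 3, 3 of 10 were lower, against 42.5% and 44.5% of all genes. The medians were 0.13 and 0.13, against 0.033 and 0.020 over all genes. The 3 were Ngp (-0.54 and -0.51), S100a8 (-0.29 and -0.21) and Ltf (-0.32 and -0.28), which stayed below 0 whichever array was left out. Wild-type arrays mattered too: 7 of 10 were lower without wild-type array 1, 5 of 10 without wild-type array 2 and 9 of 10 without wild-type array 3. The shares of all genes lower in these settings were 39.2%, 37.8% and 39.1%. Without wild-type array 1 Camp came to 0.088. Without wild-type array 2 Cxcr2 came to 0.15, Mmp8 to 0.079 and Mmp9 to 0.033, and without wild-type array 3 Il1r2 came to -0.047. Weighting the arrays by their estimated quality in limma, with knockout array 1 counting at 0.142 and knockout array 2 at 8.57, let 6 of 10 pass the adjusted threshold toward lower values, against 8.77% of all genes.

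The 10 genes did not share 1 profile exactly. Among the wild-type arrays, Ngp, Ltf, Camp and S100a9 were highest on array 1, and the other 6 genes were highest on array 2. Knockout array 1 exceeded the wild-type mean by 0.33 to 0.38 for Ngp, Ltf and Camp, and by 0.71 to 1.46 for the other 7 genes. Mmp8 (1.46) and Il1r2 (1.36) were at the top. With 1 array on that side there is no test of this split, which was picked out after the values were seen.

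**Figure D3:**
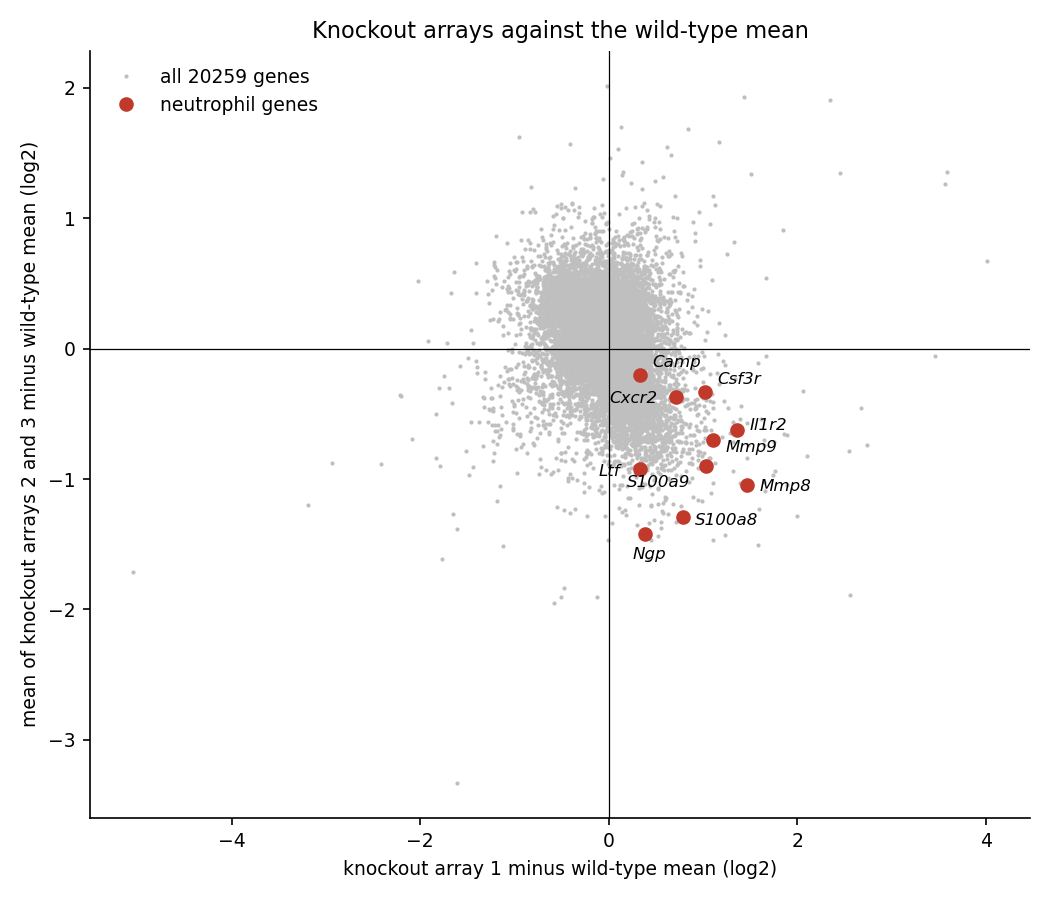
Knockout array 1 minus the wild-type mean (horizontal axis, log2) against the mean of knockout arrays 2 and 3 minus the wild-type mean (vertical axis, log2) for 20259 genes (grey) and the 10 neutrophil genes (red). All 10 lie right of 0 and below 0, with Ngp, Ltf and Camp nearest to the vertical line and Mmp8 farthest from it.

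Among the other granule genes, 0 of 14 measured passed in limma after adjustment. With all arrays 8 were lower, against 38.3% of all genes, and the median difference was -0.078. Without knockout array 1 these were 11, against 34.7%, and -0.31. Chil3, a chitinase-like secreted lectin, gave 5.75, 4.12 and 4.46 in knockout and 5.88, 5.82 and 5.57 in wild type, a difference of -0.98 (SE 0.39, limma adjusted p = 0.907), and -1.47 without knockout array 1. It was the 1 granule gene with an unadjusted p under 0.05, and knockout array 1 lay inside the wild-type range. Bpi, which binds bacterial endotoxin, differed by 0.27 (SE 0.13), and Padi4, the enzyme that citrullinates histones during extracellular trap formation, by 0.28 (SE 0.14). Knockout array 1 was highest of the 6 for 7 of the 14 genes, against 17.6% of all genes. Among the 7 was Retnlg, a resistin-like protein of mature neutrophils, with 9.53, 6.13 and 6.38 in knockout and 7.23, 8.11 and 7.26 in wild type. Of the azurophil enzymes Mpo, Elane, Prtn3 and Ctsg, 0 of 4 had knockout array 1 highest, and it lay between -0.17 and 0.17 of their wild-type means. Lcn2, which is stored in specific granules, was not highest there either, with 7.07, 6.35 and 6.40 in knockout and 7.02, 7.17 and 6.84 in wild type. Retnlg, Lcn2 and these 4 enzymes were picked out after their values were seen.

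Of 17 surface and adhesion genes measured, 0 passed in limma after adjustment, and 12 were lower with a median of -0.15, against 38.3% of all genes. Knockout array 1 was highest in 12, against 17.6% of all genes. In 10 of the 17 the other knockout arrays were also below every wild-type array, against 9.46% of all genes. Ly6g, the surface antigen that defines mouse neutrophils, gave 6.71, 4.87 and 4.93 in knockout and 6.42, 6.39 and 5.62 in wild type. Knockout array 1 was highest and the other knockout arrays were lowest, as in 9 of the 10 genes. Its difference was -0.64 (SE 0.50, limma adjusted p = 0.907), or -1.24 without knockout array 1. Selplg, the ligand with which leukocytes roll on selectins, differed by -0.44 (SE 0.27) and Ceacam10 by 0.29 (SE 0.15). Without knockout array 1, 14 of the 17 were lower, against 34.7% of all genes, with a median of -0.57. Cxcr1, the coding gene next to Cxcr2, had its highest value on knockout array 3 (4.99) and differed by 0.053. It was picked out for its position after its values were seen.

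The ligands and partner receptors of the 10 genes had 6 of 13 lower, against 38.3% of all genes. Their median difference was 0.058, and 0 were past the threshold in limma. Without knockout array 1 the direction of the median turned, to -0.34, with 8 of 13 lower, against 34.7% of all genes. Il1rap, the accessory chain of interleukin-1 receptors, differed by 0.22 (SE 0.12), and Ppbp, a platelet chemokine that binds CXCR2, by 0.43 (SE 0.29). Il1r1, the signalling receptor encoded beside Il1r2, gave 4.70, 4.76 and 4.78 in knockout and 4.68, 5.70 and 4.97 in wild type, a difference of -0.37 (SE 0.25). It was highest on wild-type array 2 and not on knockout array 1. By contrast Cxcl2, a CXCR2 ligand, gave 10.52, 7.89 and 8.10 in knockout and 8.87, 9.66 and 8.70 in wild type, and Il1b, the cytokine that Il1r2 binds, gave 9.20, 6.57 and 6.83 in knockout and 7.77, 8.08 and 7.36 in wild type. Both had knockout array 1 highest and the other knockout arrays lowest. This arrangement was found in 3 of the 13, against 9.46% of all genes, and not in the chemokines Cxcl1, Cxcl5 and Ppbp. Csf3, which encodes G-CSF, lay between 4.31 and 4.62 in knockout and between 4.52 and 4.64 in wild type. Cxcl1, Cxcl2, Cxcl5, Il1b and Csf3 were picked out after their values were seen.

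Subunits of the phagocyte oxidase, which makes superoxide, had knockout array 1 highest and the other knockout arrays lowest in 5 of 5 measured, against 9.46% of all genes. Of the 5, 3 were lower, against 38.3% of all genes, with a median difference of -0.16. Rac2 differed by -0.42 (SE 0.32), Cybb by -0.46 (SE 0.53) and Ncf4 by -0.16 (SE 0.34). All 5 were lower without knockout array 1, against 34.7% of all genes, with a median of -0.59, Cybb at -1.16 and Rac2 at -0.83. Among 7 transcription factors of granulocyte maturation, 4 were lower, against 38.3% of all genes, and the median was -0.063. Without knockout array 1, 3 were lower, against 34.7%, and the median turned to 0.087. Cebpb differed by 0.21 (SE 0.13), Cebpe, which drives specific granule genes, by 0.19 (SE 0.22) and Runx1 by -0.39 (SE 0.34). Cebpe gave 7.28, 6.57 and 7.37 in knockout and 6.97, 6.90 and 6.78 in wild type, without the gap between knockout array 1 and array 3. Inhibitors of metalloproteases had 4 of 6 lower, against 38.3% of all genes, with a median of -0.24. Without knockout array 1 they had 3 of 6 lower, against 34.7%, with a median of -0.0028. Reck, a membrane-anchored inhibitor, differed by -0.76 (SE 0.26, limma adjusted p = 0.907), Timp2 by -0.65 (SE 0.29) and Timp1, which binds MMP9, by 0.23 (SE 0.18). In none of the 6 was knockout array 1 highest, against 17.6% of all genes. Of the oxidase, transcription factor and inhibitor genes, 0 passed in limma after adjustment.

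Markers of other cells moved with the neutrophil genes to different degrees. The 6 genes of all leukocytes, such as Ptprc, averaged 8.95, 7.75 and 7.69 in knockout, against 8.50, 8.33 and 8.54 in wild type. In 6 of 6 knockout array 1 was highest and the other knockout arrays were lowest, against 9.46% of all genes. The 7 B cell genes averaged 8.83, 7.54 and 7.51 in knockout and 8.38, 8.24 and 8.42 in wild type, with that arrangement in 7 of 7. The 8 T and NK cell genes averaged 7.35, 6.86 and 6.83 in knockout and 7.57, 7.20 and 7.70 in wild type. Knockout array 1 was highest in 0 of 8, against 17.6% of all genes. The 12 macrophage and monocyte genes averaged 7.11, 6.11 and 6.28 in knockout and 6.58, 7.40 and 6.42 in wild type, highest on wild-type array 2. In the other direction, the 8 acinar genes averaged 10.81, 11.57 and 11.58 in knockout and 11.31, 11.41 and 11.42 in wild type, lowest on knockout array 1. All arrays were of cells sorted for GFP, a gate that should leave out cells without the reporter. How far it left out leukocytes was not tested, and the labels do not state how pure the sort was. The part of these other cells in the neutrophil values was not tested.

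Eosinophil, basophil and mast cell genes, the nearest other granulocytes, averaged 4.99, 4.54 and 4.43 in knockout and 4.49, 4.63 and 4.47 in wild type. The full arrangement was found in 0 of 8, against 9.46% of all genes. Fibroblast genes (8) averaged 5.43, 5.998 and 5.86 in knockout and 5.74, 6.87 and 6.18 in wild type. Erythroid genes (4) averaged 4.55, 5.72 and 5.48 in knockout and 5.24, 5.61 and 7.29 in wild type. Endothelial genes (5) averaged 4.93, 5.60 and 5.63 in knockout and 4.94, 5.88 and 5.44 in wild type. Of these 4 lists the eosinophil, basophil and mast cell genes alone averaged highest on knockout array 1, and there knockout array 2 lay inside the wild-type range. No detection calls show whether any marker was at background.

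**Figure D4:**
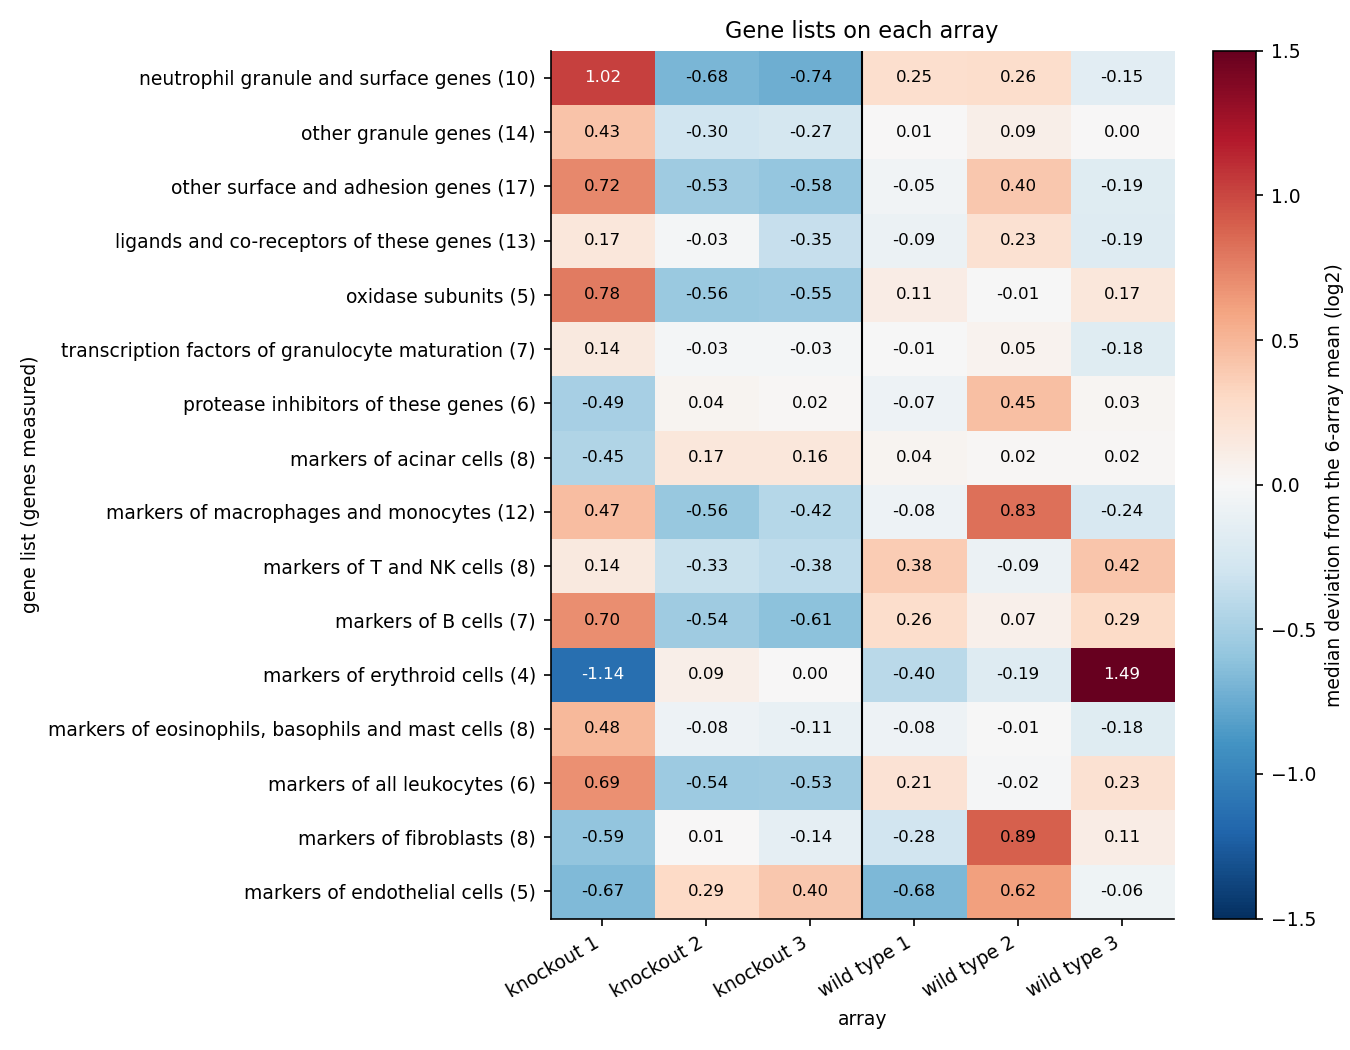
Median deviation of the genes of each list from their own 6-array mean (colour and printed value, log2) on the knockout arrays (left) and wild-type arrays (right). The neutrophil genes stand at 1.02 on knockout array 1 and at -0.68 and -0.74 on knockout arrays 2 and 3, and the markers of all leukocytes, B cells, T and NK cells, macrophages and monocytes, and eosinophils, basophils and mast cells have the same signs on these 3 arrays.

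The genes outside the 10 whose profile was most like their mean were Plk3, Trps1, Slc15a3, Coq10b, Havcr2, Tmsb4x, Crk and Slc6a6. As a description over 6 arrays, whose values share 1 normalization, Pearson's r with the mean of the 10 ran from 0.991 for Slc6a6 to 0.995 for Plk3. Trps1, a zinc finger repressor, gave 7.84, 6.46 and 6.54 in knockout and 7.25, 7.29 and 7.01 in wild type. Tmsb4x, the actin-binding thymosin beta 4, gave 10.31, 9.31 and 9.17 in knockout and 9.88, 9.94 and 9.65 in wild type. None of the 8 differed between the groups after adjustment in limma, with differences from -0.24 to -0.077.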

How the data were processed

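RNA of 6 samples, 3 p120 knockout and 3 p120 wild type, was measured on 1 expression array each. The authors deposited log2 expression values; per the submitters' processing notes they used Partek and RMA, whose versions are not stated. The genome build is not given in the sources used here. Medians of the 115830 rows lay between 4.085 and 4.25 on the arrays. Without detection calls or scan dates, neither background nor batch was testable. The number of arrays limits the precision.

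Of the rows, 25539 had 1 gene symbol in the platform annotation, 2300 had several and 87991 were unnamed here. For each of 20259 genes, the row with the largest mean over the arrays was used. Of the single-symbol rows, 24941 matched a reference gene table (GRCm38.p6) by gene number, which was used for names, neighbours and promoter windows. Rows can also read close paralogs.

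Differences were fitted in limma 3.58.1 (R 4.3.3; lmFit, eBayes, no filter, no block) over all genes, with Benjamini-Hochberg adjustment, and tested on simulated data. Exact permutation tests used scipy 1.17.1. Alternatives changed the normalization, the filter on dim genes, the choice of row, the variance model or the array weights, added a replicate block, or left out each array in turn. The 10 genes and all lists were chosen with earlier results of these data known. The text names the 10 genes, up to 3 genes per list with the smallest p, the 8 genes with the most similar profile among those above the median level, leaving out predicted genes, and Ctnnd1. Genes named outside this rule, chosen after their values were seen, are marked as such or, for marker lists, serve as examples.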

Additional observations from a re-analysis of the deposited data

How the results depend on the processing

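Of 158 member results over 16 alternatives, 132 kept their direction and their side of the threshold, 20 changed sign and 6 passed the threshold. Limma's array weights gave 4797 genes past the threshold, 23.7% of all, and 6 of the 10 neutrophil genes, all lower: Ngp, S100a8, Ltf, S100a9, Mmp9 and Mmp8. These weights put 8.57 on knockout array 2 and 0.142 on knockout array 1, and their estimation stopped before it converged. With them Csf3r came to -0.31 and Il1r2 to -0.49, and Il1r2 was -0.044 after arrays were shifted to 1 median. Leaving out 1 array at a time gave 0 to 2 genes past the threshold. It left 3 to 10 of the 10 genes lower, against 34.7% to 44.5% of all genes. The differences then ran from -0.21 to 0.11 for Camp, -0.33 to 0.35 for Csf3r, -0.37 to 0.18 for Cxcr2, -0.62 to 0.43 for Il1r2, -1.05 to 0.27 for Mmp8, -0.70 to 0.25 for Mmp9 and -0.90 to 0.067 for S100a9. The cause was not tested. Samples with the same replicate number deviated together with r of 0.041, 0.14 and -0.15 across genes, so the numbers were not taken as pairs. With a replicate block 0 genes passed, and 652 had an unadjusted p under 0.05, against 708 without it. In the knockout group 1 array of 3 set most of the spread, which limits what 3 arrays can show.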
